A study of Mus musculus with 16 samples.

Results

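The mouse Cyp2c, Cyp2d and Cyp2j genes encode cytochrome P450 enzymes and lie in 3 gene clusters. They were taken here as every gene whose symbol is Cyp2c, Cyp2d or Cyp2j followed by a number alone, which left out pseudogenes. This gave 31 of the 53714 genes counted, of which 15 were Cyp2c, 8 Cyp2d and 8 Cyp2j genes. Their levels come from 16 livers of C57BL/6 males, all 9 weeks old, in 4 groups of 4 libraries: fasted KO, fasted WT, fed KO and fed WT. KO livers carried Slc25a47hep-/-, a deletion in hepatocytes of a mitochondrial carrier gene, and WT livers carried Slc25a47hep+/+. Both genotypes have the strain label C57BL/6 Slc25a47tm1c(EUCOMM)Hmgu, while the sources used here do not name the recombinase or promoter behind the deletion. Fasted livers were taken after an overnight fast, and fed livers with chow present. The labels number the livers of a group but say nothing of litters or cages, so p-values measure the spread between these livers only.

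P450 enzymes are haem proteins of the endoplasmic reticulum that take electrons from the reductase encoded by Por and from cytochrome b5. The CYP2C, CYP2D and CYP2J enzymes oxidise drugs, steroids, bile acids and arachidonic acid, and several make epoxy fatty acids that the epoxide hydrolase of Ephx2 opens. In mouse liver many Cyp2c and Cyp2d genes differ between the sexes, under the pulse pattern of growth hormone and its signal through STAT5. A bulk library cannot tell apart fewer cells of a type and less RNA per cell, which holds for every level below.

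The Cyp2c genes lie on chromosome 19 of GRCm38, with 14 of them from 39007019 to 40187333 and Cyp2c23 apart from 44005022 to 44029208. The Cyp2d genes lie on chromosome 15 from 82370527 to 82794294, and the Cyp2j genes on chromosome 4 from 96027534 to 96664154. Enough reads for a test were present for 23 members: 13 Cyp2c, 7 Cyp2d and 3 Cyp2j genes. The other 8 members stayed near or at 0. Cyp2c65, a gene known from the gut, had 30 reads in all 16 libraries together, and its neighbour Cyp2c66 had 2. Cyp2d34 had 4 reads, Cyp2j8 had 56 with at most 9 in a library, and Cyp2j13 had 2, both in a single library. Cyp2j7, Cyp2j11 and Cyp2j12 had 0 reads in every library. The Cyp2j cluster was thus read through Cyp2j5, Cyp2j6 and Cyp2j9, and nothing can be said of the other 5.

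Members of a cluster resemble each other, and a read that fits more than 1 gene was not counted for any. The share of 50-base stretches of a transcript that also occur in another gene was 72.1% for Cyp2c40, 54.8% for Cyp2c69, 52.8% for Cyp2c67 and 43.3% for Cyp2c68. It was 40.5% for Cyp2d10, 37.2% for Cyp2d11 and 29.0% for Cyp2d9, and 30.7%, 30.1% and 25.7% for Cyp2c50, Cyp2c37 and Cyp2c54. Cyp2c38 and Cyp2c39 shared 7.4% and 12.0%, while Cyp2c70, Cyp2c23 and Cyp2j9 shared 0% and Cyp2j5 0.17%. The levels of the first genes are therefore uncertain, since they rest on the stretches that are theirs alone. The length of 50 bases was a choice, as the labels do not give the read length. These shares are thus not shares of reads lost. Reads that aligned to several places made up 32.0 to 39.3% of all reads in KO libraries and 40.4 to 45.8% in WT libraries, and the part of this gap in the results was not tested. Exons on the same strand also overlap by 142 bp between Cyp2c29 and Cyp2c53-ps and by 186 bp between Cyp2d9 and Gm46501, where reads cannot be assigned. The same holds for 60 bp in each of Cyp2d9, Cyp2d10, Cyp2d11 and Cyp2d12, which overlap annotated miRNA genes on their strand.

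**Figure D1:**
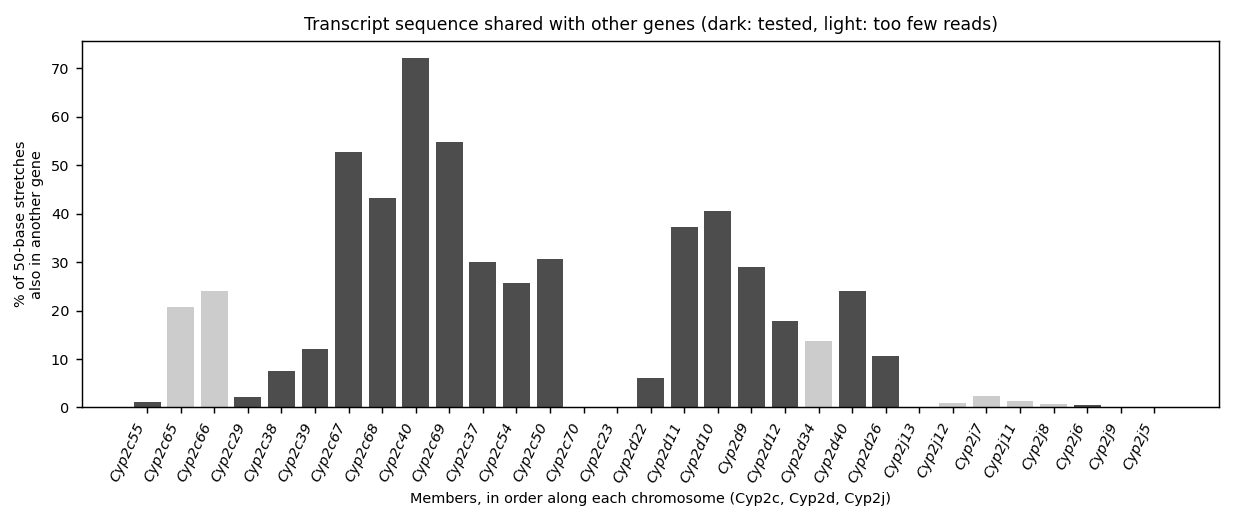
Share of each member's 50-base transcript stretches (y axis, percent) that also occur in another gene, for the 31 members along the x axis in chromosome order; dark bars are tested members and light bars are those with too few reads. The Cyp2c block of Cyp2c67, Cyp2c68, Cyp2c40 and Cyp2c69 stands highest, up to 72.1%, and the tested Cyp2j genes share nearly nothing.

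Reads assigned to genes numbered 19.6 to 27.3 M per library. Slc25a47 itself, in CPM (reads of a gene for each M reads on all genes, with TMM factors applied), was 163 to 330 in fasted KO and 855 to 1139 in fasted WT livers, and 81.8 to 153 in fed KO and 460 to 835 in fed WT livers, with no overlap. The summed level of 10 defining hepatocyte genes was 109115 to 126935 CPM in fasted KO, 91376 to 134209 in fasted WT, 86048 to 119668 in fed KO and 124112 to 134124 in fed WT livers, and 5 of the 10 were lower in KO livers in each feeding state and 0 higher. Of 9 stellate cell markers, 4 were higher in fasted and 7 in fed KO livers and 0 lower, with sums of 427 to 522 CPM in fasted KO, 333 to 407 in fasted WT, 494 to 547 in fed KO and 329 to 394 in fed WT livers. Of 7 endothelial and 5 tested bile duct markers 0 differed by genotype, and 1 of 8 macrophage markers was higher in each. Of all genes tested, 13.8% were higher and 14.5% lower in fasted KO livers, and 14% higher and 16.9% lower in fed ones. Of 6 kidney tubule markers 3 were at 0 in every library and the sum reached at most 0.185 CPM, which bears on Cyp2j5 and Cyp2c23, genes also known from kidney. The sum of 14 pancreatic acinar markers was 1849 CPM in replicate 2 and 511 in replicate 4 of fasted WT livers, against at most 80.2 in any other library. The genotype and fasting calls that end without those libraries are named with their values there, and the part of the stellate and hepatocyte marker differences in the results was not tested.

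Compared per kb of exon, which counts all bases in any annotated exon of a gene, the members spanned a wide range within each cluster. In fed WT livers the highest were Cyp2c29 at 589 ± 30.6 CPM per kb (SD, n = 4), Cyp2d9 at 559 ± 97.4, Cyp2c70 at 504 ± 97.0, Cyp2d26 at 494 ± 30.2, Cyp2d10 at 416 ± 28.7 and Cyp2j5 at 344 ± 18.3. The means of Cyp2c29, Cyp2d9 and Cyp2c70 lay within an SD of their neighbours, so their order is not settled. The order in every group also depends on the length used. Exon bases numbered 3061 for Cyp2c29, 2658 for Cyp2d9 and 1981 for Cyp2c70. The single transcripts used for shared stretches had 1783, 1712 and 1717 bases, and orders by transcript length were not computed. Other groups had another order at the top. In fed KO livers Cyp2c29 at 574 ± 109 CPM per kb was followed by Cyp2d10 at 376 ± 38.7 and Cyp2d26 at 372 ± 38.5. Fasted WT livers were led by Cyp2d9 at 696 ± 55.4 CPM per kb, and fasted KO livers by Cyp2d26 at 374 ± 13.0, with Cyp2d10 at 312 ± 27.2 and Cyp2d9 at 309 ± 78.5. Cyp2d11 and Cyp2d12 stayed low in every group, with at most 0.959 and 0.964 CPM in any library. Both passed the filter on low counts over the 16 libraries but not over the 8 fasted or the 8 KO libraries alone, so they were tested through the groups where they are higher.

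Summed over a cluster, Cyp2c genes had 1944 ± 338 CPM in fasted KO and 2780 ± 397 in fasted WT livers, and 4688 ± 650 in fed KO and 5455 ± 183 in fed WT livers (SD, n = 4 each). In both feeding states the KO and WT ranges of this sum overlapped. Cyp2d genes had 2212 ± 262 CPM in fasted KO and 3572 ± 96.0 in fasted WT livers, and 2266 ± 293 in fed KO and 3403 ± 371 in fed WT livers. Cyp2j genes had 598 ± 8.98 CPM in fasted KO and 765 ± 38.4 in fasted WT livers, and 698 ± 68.9 in fed KO and 929 ± 46.3 in fed WT livers. The Cyp2d and Cyp2j sums did not overlap between genotypes in either state. As a share of gene reads, without TMM scaling, the Cyp2c genes held 0.516 ± 0.0522% in fed KO and 0.516 ± 0.0104% in fed WT livers. The Cyp2d means were still lower in KO livers on that scale, though 1 fed KO library (0.285%) lay above 1 fed WT library (0.284%), with 0.250 ± 0.0349% in fed KO and 0.322 ± 0.0401% in fed WT livers, and 0.230 ± 0.0226% in fasted KO and 0.328 ± 0.0102% in fasted WT livers. These sums follow their highest members and were not tested.

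**Figure D2:**
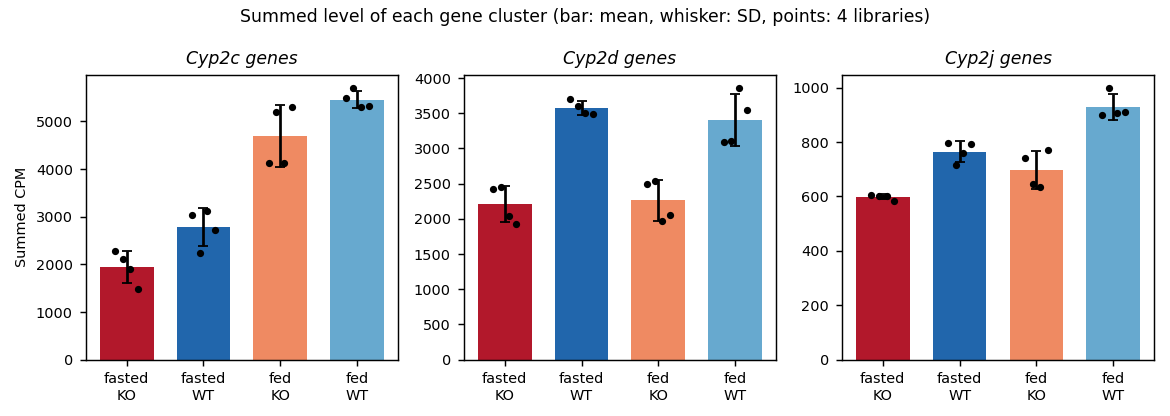
Summed CPM (y axis, from 0) of the Cyp2c, Cyp2d and Cyp2j genes in fasted KO, fasted WT, fed KO and fed WT livers; bars are means of 4 libraries, whiskers SD and points single libraries. The Cyp2c sum is lower after the fast in both genotypes, and the Cyp2d sum separates KO (2212 and 2266 CPM) from WT (3572 and 3403 CPM) in both feeding states.

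Member by member, the genotype comparison asked which P450 genes differ when hepatocytes lack Slc25a47. In the fasted comparison 1 of the 23 tested members was higher and 13 were lower in KO livers (edgeR quasi-likelihood test, adjusted p under 0.05), which is 60.9% called, against 28.3% of the 13905 genes tested (13.8% higher and 14.5% lower). In the fed comparison 5 were higher and 9 lower, also 60.9% called, against 30.9% of all genes (14% higher and 16.9% lower). The differences between the clusters' counts below were not tested. Of 13 Cyp2c genes, 1 was higher and 5 lower in the fasted comparison, and 5 were higher and 3 lower in the fed comparison. Of 7 Cyp2d genes, 5 were lower in the fasted and 3 in the fed comparison and 0 were higher in either. All 3 tested Cyp2j genes were lower in both. Median log2 fold changes in the fasted comparison were -0.18 for Cyp2c, -0.76 for Cyp2d and -0.34 for Cyp2j genes, beside 0.01 over all genes. In the fed comparison they were 0.15, -0.62 and -0.50, beside -0.01 over all genes. Scaling matters for these counts. With library totals in place of TMM, the median of all genes moved to 0.20 in the fasted and 0.21 in the fed comparison, and the members counted 2 higher and 6 lower fasted and 7 higher and 6 lower fed. Over all genes the fed split was 4886 higher and 915 lower with library totals, against 1948 higher and 2351 lower with TMM, and the fasted split was 4301 and 902, against 1918 and 2011.

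**Figure D3:**
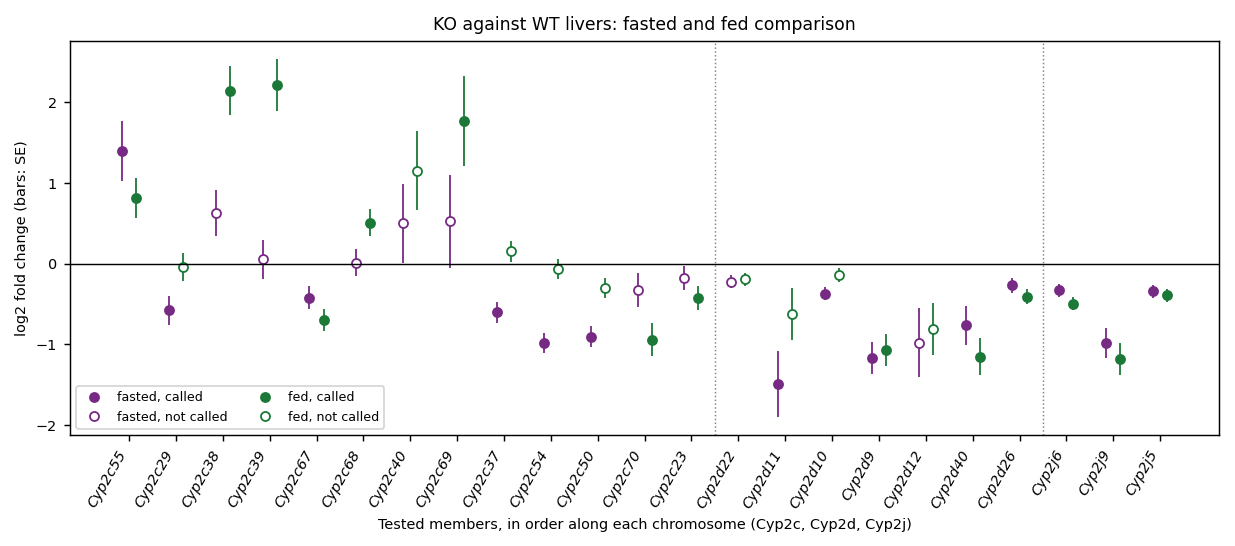
Log2 fold change of KO over WT (y axis, bars are SE) for the 23 tested members in chromosome order, with the fasted comparison in purple and the fed comparison in green; filled points passed the test and dotted lines part the clusters. Cyp2c38 and Cyp2c39 stand highest in the fed comparison at 2.15 and 2.22, while every Cyp2d and Cyp2j genotype point lies at or below -0.14 with TMM scaling; with library totals Cyp2d22 and Cyp2d10 move to 0.03 and 0.08 in the fed comparison.

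Cyp2c38, an arachidonic acid epoxygenase gene, and its neighbour Cyp2c39, whose enzyme hydroxylates retinoic acid, were the members most raised in fed KO livers. Both are known to be higher in female than in male mouse liver. After the fast, Cyp2c38 had 125, 91.4, 101 and 63.1 CPM in KO livers, against 57.9, 44.3, 75.2 and 69.1 in WT livers. In fed livers, Cyp2c38 had 54.2, 79.4, 105 and 126 CPM in KO, against 24.6, 12.9, 23.2 and 21.8 in WT livers. The fed groups did not overlap, and fed WT livers stood alone at the low end of all 4 groups. The fed difference was 2.15 ± 0.30 (log2 fold change ± SE; adjusted p = 0.000186), while 0.62 ± 0.29 in the fasted comparison did not pass (adjusted p = 0.124), except with library totals (0.0354 to 0.355 over all alternatives). After the fast, Cyp2c39 had 13.0, 7.61, 10.1 and 7.30 CPM in KO and 12.4, 7.48, 8.84 and 7.90 in WT livers, which overlapped. In fed livers, Cyp2c39 had 2.20, 3.25, 3.80 and 6.01 CPM in KO and 0.964, 0.799, 0.741 and 0.735 in WT livers, with every KO library above every WT library. Its fed difference was 2.22 ± 0.32 (adjusted p = 8.53e-05) and its fasted one 0.05 ± 0.24 (adjusted p = 0.893). Their coding sequences are 94.2% identical, and both fed calls were kept in all 24 alternative fits (adjusted p at most 0.0024 for Cyp2c38 and 0.00066 for Cyp2c39).

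Cyp2c29 lies next to this pair on the chromosome and encodes a main constitutive P450 of mouse liver. After the fast, Cyp2c29 had 568, 424, 313 and 306 CPM in KO, against 666, 481, 640.3 and 618 in WT livers. In fed livers, Cyp2c29 had 1419, 2103, 1533 and 1976 CPM in KO and 1941, 1771, 1768 and 1732 in WT livers. KO and WT overlapped in both states. The fasted difference of -0.58 ± 0.18 passed the test (adjusted p = 0.022) and the fed one of -0.04 ± 0.18 did not (adjusted p = 0.896). The fasted call was lost without fasted KO replicate 3 or 4 or fasted WT replicate 1 or 3. It was also lost with library totals, with no filter on low counts and in the fit of the 8 fasted libraries alone, and over all alternatives its adjusted p ran from 0.000643 to 0.0795.

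The start regions of these 3 genes are shown because neighbours of similar sequence had unlike fed differences. The letters are RefSeq's on GRCm38.p6, from 250 bases before to 50 after the annotated start and in the direction of the gene, at chr19:39286835-39287134 (plus strand) for Cyp2c29, chr19:39463026-39463325 (minus) for Cyp2c38 and chr19:39510572-39510871 (plus) for Cyp2c39. Capitals mark TATAAA, the core of a TATA box, and AGGTCA, the core hexamer of nuclear receptor sites, on either strand.
Cyp2c29: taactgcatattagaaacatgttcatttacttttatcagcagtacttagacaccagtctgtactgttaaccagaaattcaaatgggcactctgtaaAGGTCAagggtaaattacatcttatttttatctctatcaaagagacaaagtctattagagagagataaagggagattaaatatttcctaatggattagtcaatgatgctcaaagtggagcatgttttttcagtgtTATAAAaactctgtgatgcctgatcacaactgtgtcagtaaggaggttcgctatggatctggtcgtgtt
Cyp2c38: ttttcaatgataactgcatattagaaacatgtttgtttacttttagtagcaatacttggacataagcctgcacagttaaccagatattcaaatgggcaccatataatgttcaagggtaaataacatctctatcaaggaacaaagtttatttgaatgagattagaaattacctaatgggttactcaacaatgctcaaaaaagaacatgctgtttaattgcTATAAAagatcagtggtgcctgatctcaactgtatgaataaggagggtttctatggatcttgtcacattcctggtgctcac
Cyp2c39: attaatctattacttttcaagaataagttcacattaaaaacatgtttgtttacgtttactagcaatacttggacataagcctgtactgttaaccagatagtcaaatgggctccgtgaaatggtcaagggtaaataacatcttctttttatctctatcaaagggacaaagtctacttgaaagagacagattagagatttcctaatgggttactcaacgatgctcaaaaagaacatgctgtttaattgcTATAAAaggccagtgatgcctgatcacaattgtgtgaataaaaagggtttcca
All 3 hold TATAAA. In Cyp2c29 and Cyp2c38 the match begins 19 and 31 bases before the annotated start, and in Cyp2c39 it begins 3 bases before and runs across it. Cyp2c29 alone of the 3 holds AGGTCA. Cyp2c38 and Cyp2c39 were 73.6% identical over the window, and Cyp2c29 was 71.6% and 71.0% identical to them. RefSeq gives Cyp2c39 a further start that is not shown.

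Cyp2c55, an inducible gene at the end of the cluster, was the only member that passed the test as higher in KO livers in both feeding states. After the fast, Cyp2c55 had 2.68, 2.06, 1.0 and 0.970 CPM in KO, against 0.902, 0.592, 0.580 and 0.465 in WT livers. In fed livers, Cyp2c55 had 7.58, 11.1, 11.4 and 13.9 CPM in KO, against 8.37, 5.87, 5.65 and 5.15 in WT livers. The fasted groups did not overlap, whereas a fed WT library lay above the lowest fed KO library. The difference was 1.40 ± 0.37 fasted (adjusted p = 0.00981) and 0.81 ± 0.25 fed (adjusted p = 0.0193). The fasted call was lost without both fasted WT libraries with pancreatic transcripts, at 1.19 ± 0.50 (adjusted p = 0.104; 0.00036 to 0.104 over all alternatives). Leaving out replicate 4 of fed KO, or replicate 2, 3 or 4 of fed WT livers, ended the fed call (adjusted p = 0.0612, 0.0514, 0.0526 and 0.0584, within 0.00211 to 0.0612 over all alternatives), as did no filter on low counts.

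Cyp2c67, Cyp2c68, Cyp2c40 and Cyp2c69 form a block of close copies, with 97.9% identity between the coding sequences of Cyp2c40 and Cyp2c69 and 97.2% between Cyp2c67 and Cyp2c68. Cyp2c40 is known to form hydroxy fatty acids from arachidonic acid. After the fast, Cyp2c67 had 248, 235, 240.1 and 151 CPM in KO, against 287, 240.3, 335 and 306 in WT livers. In fed livers, Cyp2c67 had 345, 336, 277 and 331 CPM in KO, against 476, 620.0, 487 and 507 in WT livers. It was lower in KO livers in both states, without overlap only when fed, by -0.42 ± 0.14 fasted (adjusted p = 0.0316) and -0.70 ± 0.14 fed (adjusted p = 0.00118). The fasted call was lost without fasted KO replicate 4, the lowest library, or fasted WT replicate 1, 3 or 4. Library totals, with a value of -0.23, no filter on low counts and the fit of the 8 fasted libraries alone ended it too (0.0118 to 0.153 over all alternatives).

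Cyp2c68 and Cyp2c69 went the other way in the fed comparison. After the fast, Cyp2c68 had 242, 222, 208 and 178 CPM in KO and 216, 147, 252 and 225 in WT livers. In fed livers, Cyp2c68 had 285, 331, 320.4 and 479 CPM in KO, against 249.7, 278, 219 and 246 in WT livers. The fed groups did not overlap, at 0.51 ± 0.17 (adjusted p = 0.0293), and the fasted ones did, at 0.02 ± 0.17 (adjusted p = 0.958). Without fed KO replicate 4, the highest library, the fed value was 0.33 ± 0.14 (adjusted p = 0.104). The fed Cyp2c68 call was also lost without fed WT replicate 1, 3 or 4. It was lost as well with replicate number as a block and with no filter on low counts (0.000785 to 0.104 over all alternatives). After the fast, Cyp2c69 had 5.41, 4.90, 7.89 and 7.65 CPM in KO and 4.14, 1.02, 9.37 and 3.15 in WT livers. In fed livers, Cyp2c69 had 9.33, 15.5, 7.37 and 28.6 CPM in KO, against 7.25, 4.44, 3.71 and 2.40 in WT livers. The lowest fed KO library was just above the highest fed WT library, and a single fed KO library stood far above the rest. The fed difference was 1.77 ± 0.56 (adjusted p = 0.031), and the fasted one of 0.52 ± 0.57 did not pass (adjusted p = 0.537). The fed value was 1.28 ± 0.53 without fed KO replicate 4 (adjusted p = 0.0999). The fed Cyp2c69 call was lost as well without fed WT replicate 2, 3 or 4. Replicate number as a block and no filter on low counts also ended it (0.0104 to 0.0999 over all alternatives). Cyp2c40 averaged 18.7 ± 2.67 CPM in fasted KO, 13.2 ± 9.29 in fasted WT, 30.0 ± 14.6 in fed KO and 13.4 ± 5.53 in fed WT livers (SD, n = 4). Its fed difference of 1.15 ± 0.49 did not pass (adjusted p = 0.0923), but did with library totals or without robust estimation (0.0378 to 0.267 over all alternatives).

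Cyp2c37, Cyp2c54 and Cyp2c50, genes of arachidonic acid metabolism that stand side by side, were lower in fasted KO livers and did not pass the test in fed ones. After the fast, Cyp2c37 had 172, 159.7, 189.6 and 183 CPM in KO, against 295, 222, 315 and 235 in WT livers. In fed livers, Cyp2c37 had 264, 315, 241 and 350.4 CPM in KO and 259, 225, 304 and 264 in WT livers. No fasted KO library reached a fasted WT library, and the fed groups overlapped. Its difference was -0.60 ± 0.13 fasted (adjusted p = 0.00174) and 0.15 ± 0.13 fed (adjusted p = 0.377). After the fast, Cyp2c54 had 158, 169, 153 and 115 CPM in KO, against 326, 255, 329.6 and 267 in WT livers. In fed livers, Cyp2c54 had 247, 332, 238 and 276 CPM in KO and 261, 276, 314 and 296 in WT livers. Fasted KO livers stood below all other groups, at -0.99 ± 0.13 against fasted WT (adjusted p = 1.63e-05), while the fed value was -0.07 ± 0.12 (adjusted p = 0.709). After the fast, Cyp2c50 had 406, 446, 364 and 281 CPM in KO, against 805, 593, 779 and 621 in WT livers. In fed livers, Cyp2c50 had 640.0, 774, 607 and 753 CPM in KO and 811, 821, 872 and 914 in WT livers. The fasted groups did not overlap, at -0.90 ± 0.13 (adjusted p = 5.13e-05), and all fed KO libraries lay below the fed WT ones at a size that did not pass, -0.30 ± 0.13 (adjusted p = 0.0828). Library totals brought the fed Cyp2c37 value to 0.37 and past the test, as higher in KO livers (0.0202 to 0.78 over all alternatives). The fed Cyp2c50 value passed, as lower, in the fit of the 8 fed libraries alone and without fasted KO replicate 4 (0.0391 to 0.582 over all alternatives). All 3 fasted calls held in each of the 24 alternative fits, with adjusted p at most 0.0122 for Cyp2c37, 0.000301 for Cyp2c54 and 0.00131 for Cyp2c50.

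The start regions of Cyp2c37 and Cyp2c50, 86.8% identical, are shown as those of genes that were lower together. They are RefSeq's on GRCm38.p6, at chr19:39992174-39992473 and chr19:40089429-40089728, both on the plus strand. The sequence table used here holds no window for Cyp2c54. Capitals mark ATCAAT, a motif bound by Onecut factors, on either strand.
Cyp2c37: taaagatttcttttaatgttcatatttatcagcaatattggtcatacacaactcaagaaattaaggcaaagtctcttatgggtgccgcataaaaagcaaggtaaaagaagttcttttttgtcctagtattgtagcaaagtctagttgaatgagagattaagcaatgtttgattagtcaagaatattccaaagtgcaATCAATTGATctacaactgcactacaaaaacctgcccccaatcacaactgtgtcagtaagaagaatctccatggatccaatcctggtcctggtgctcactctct
Cyp2c50: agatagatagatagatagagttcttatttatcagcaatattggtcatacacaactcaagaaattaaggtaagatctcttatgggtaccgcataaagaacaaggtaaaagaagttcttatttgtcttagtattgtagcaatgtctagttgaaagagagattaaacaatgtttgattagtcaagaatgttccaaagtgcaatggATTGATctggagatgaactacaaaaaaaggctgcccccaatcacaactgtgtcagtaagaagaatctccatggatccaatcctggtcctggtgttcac
In Cyp2c37 the capitals are 2 matches, 1 per strand, that overlap. Neither window holds TATAAA. Over all 32817 RefSeq windows of this length ATCAAT occurs in 7.54%, and among the 25 members with a window it occurs in 6, which are Cyp2c37, Cyp2c50, Cyp2c67, Cyp2c68, Cyp2c40 and Cyp2c69. Among these members TATAAA occurs in 16 (13.6% of all windows), and AGGTCA in Cyp2c29, Cyp2c70, Cyp2d40 and Cyp2j5 (16.3% of all windows). The STAT5 motif TTCNNNGAA occurs in Cyp2j11 and Cyp2j12 alone of the members (8.29% of all windows). All 4 motifs were searched on both strands, and a match is a description of letters.

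Cyp2c70, the enzyme that makes muricholic acids in mouse liver, was lower in fed KO livers and far lower after the fast in both genotypes. After the fast, Cyp2c70 had 84.0, 107, 78.1 and 53.8 CPM in KO and 119.9, 64.9, 101 and 118 in WT livers. In fed livers, Cyp2c70 had 510.1, 529, 471 and 571 CPM in KO, against 993, 1269, 829 and 905 in WT livers. The fed groups were apart and the fasted groups overlapped. The fed difference was -0.94 ± 0.21 (adjusted p = 0.00339), and the fasted one of -0.32 ± 0.21 did not pass (adjusted p = 0.275). Cyp2c23, an epoxygenase gene of liver and kidney outside the main cluster, had 233, 225, 214 and 124 CPM in fasted KO and 242, 184, 246 and 231 in fasted WT livers. In fed livers, Cyp2c23 had 323, 332, 292 and 345 CPM in KO, against 443, 399.9, 469 and 419 in WT livers. The fed groups did not overlap. The fed difference of -0.42 ± 0.15 passed narrowly (adjusted p = 0.0403), and the fasted one of -0.18 ± 0.15 did not (adjusted p = 0.395). The fed call was lost when any of the 8 fed libraries was left out. It was also lost with library totals, with replicate number as a block and with no filter on low counts (0.00157 to 0.249 over all alternatives).

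**Figure D4:**
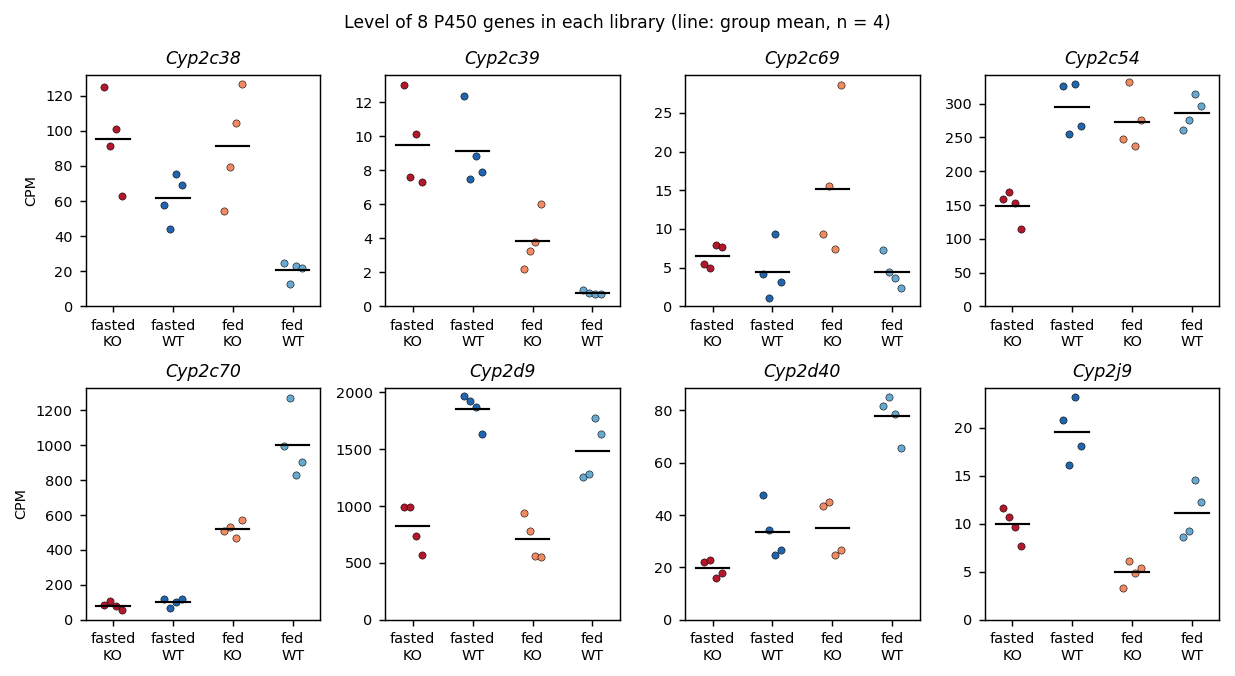
CPM (y axes, from 0) of 8 members in each library of fasted KO, fasted WT, fed KO and fed WT livers; points are libraries and lines are means of 4. Cyp2c38 and Cyp2c39 are lowest in fed WT livers, Cyp2c54 is low in fasted KO livers, and Cyp2d9 and Cyp2j9 are lower in KO livers in both feeding states.

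Among the Cyp2d genes, Cyp2d9, a male-predominant gene whose enzyme hydroxylates testosterone, was lower in KO livers in both states. After the fast, Cyp2d9 had 989.9, 993, 737 and 565 CPM in KO, against 1969, 1919.8, 1874 and 1636 in WT livers. In fed livers, Cyp2d9 had 941, 783, 557 and 554 CPM in KO, against 1258, 1279, 1778 and 1631 in WT livers. No KO library reached a WT library of either state. The difference was -1.17 ± 0.20 fasted (adjusted p = 0.000429) and -1.07 ± 0.20 fed (adjusted p = 0.00087), and both calls held in all 24 alternative fits. After the fast, Cyp2d40 had 22.1, 22.7, 16 and 17.8 CPM in KO, against 47.8, 34.4, 24.9 and 26.5 in WT livers. In fed livers, Cyp2d40 had 43.6, 44.9, 24.7 and 26.6 CPM in KO, against 81.6, 85.2, 78.8 and 65.7 in WT livers. Genotypes did not overlap in either state, at -0.76 ± 0.24 fasted (adjusted p = 0.0272) and -1.15 ± 0.23 fed (adjusted p = 0.00208). The fasted call was lost without fasted KO replicate 3 or 4, without fasted WT replicate 1 or 2, and with library totals or no filter on low counts (0.000545 to 0.0859 over all alternatives).

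Cyp2d26 and Cyp2d10, the other abundant Cyp2d genes, moved by less. After the fast, Cyp2d26 had 676, 682, 636 and 687 CPM in KO, against 848, 759.8, 706 and 916 in WT livers. In fed livers, Cyp2d26 had 625, 757, 602 and 683 CPM in KO, against 859.8, 852, 965 and 860.3 in WT livers. Every KO library was below the WT libraries of its state, by -0.27 ± 0.09 fasted (adjusted p = 0.0301) and -0.41 ± 0.09 fed (adjusted p = 0.0021). Library totals ended both calls, and the fasted one was also lost without fasted KO replicate 2 or 3 or fasted WT replicate 1 or 4, and without both fasted WT libraries with pancreatic transcripts at -0.21 ± 0.11, adjusted p = 0.165 (0.00741 to 0.484 fasted and 7.19e-05 to 0.0923 fed over all alternatives). After the fast, Cyp2d10 had 539, 564, 479 and 473 CPM in KO, against 611, 678, 684 and 680.1 in WT livers. In fed livers, Cyp2d10 had 631, 706, 583 and 562 CPM in KO and 640.5, 649, 727 and 726 in WT livers. The fasted groups did not overlap and the fed ones did, at -0.37 ± 0.09 fasted (adjusted p = 0.00336) and -0.14 ± 0.09 fed (adjusted p = 0.215). Library totals ended the fasted call (7.96e-05 to 0.107 over all alternatives).

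The start regions of Cyp2d9 and Cyp2d10 are shown beside each other, since they are 83.5% identical while their fed differences were -1.07 ± 0.20 and -0.14 ± 0.09. They are RefSeq's on GRCm38.p6, at chr15:82452127-82452426 (plus) and chr15:82407145-82407444 (minus). Capitals mark TATAAA on either strand, read here as TTTATA.
Cyp2d9: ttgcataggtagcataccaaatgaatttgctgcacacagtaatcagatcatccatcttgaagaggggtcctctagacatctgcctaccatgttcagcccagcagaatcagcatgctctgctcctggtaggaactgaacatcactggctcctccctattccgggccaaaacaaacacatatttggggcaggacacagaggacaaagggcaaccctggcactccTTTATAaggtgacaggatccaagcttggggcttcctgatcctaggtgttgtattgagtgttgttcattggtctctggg
Cyp2d10: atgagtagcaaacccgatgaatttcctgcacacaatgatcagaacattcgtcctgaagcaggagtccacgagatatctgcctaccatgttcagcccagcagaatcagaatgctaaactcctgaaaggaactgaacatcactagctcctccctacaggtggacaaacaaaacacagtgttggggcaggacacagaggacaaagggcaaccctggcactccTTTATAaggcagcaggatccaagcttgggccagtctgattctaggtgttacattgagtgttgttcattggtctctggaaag
Both windows hold the match shortly before the start and none of the other 3 motifs.

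The remaining Cyp2d genes were low or did not pass. Cyp2d11 had 0.252, 0.283, 0.0417 and 0.194 CPM in fasted KO and 0.371, 0.484, 0.669 and 0.671 in fasted WT livers. In fed livers, Cyp2d11 had 0.774, 0.306, 0.499 and 0.582 CPM in KO and 0.761, 0.959, 0.741 and 0.833 in WT livers. The fasted groups did not overlap, at -1.49 ± 0.41 (adjusted p = 0.0104), where Cyp2d11 had 1 to 7 reads in a fasted KO library and 7 to 15 in a fasted WT library. The call was lost without both fasted WT libraries with pancreatic transcripts (-1.43 ± 0.51, adjusted p = 0.0546; 0.0071 to 0.0546 over all alternatives). It is among the 13 and 5 lower calls counted above, although the fasted libraries alone did not pass the gene to a test. The fed value of -0.62 ± 0.32 did not pass (adjusted p = 0.155). Cyp2d22, proposed as the mouse counterpart of human CYP2D6, averaged 186 ± 9.38 CPM in fasted KO, 217 ± 9.07 in fasted WT, 234 ± 22.0 in fed KO and 267 ± 29.9 in fed WT livers. Its differences of -0.22 ± 0.08 fasted (adjusted p = 0.0553) and -0.19 ± 0.08 fed (adjusted p = 0.0868) did not pass. The fasted value passed with DESeq2 size factors, the DESeq2 Wald test or the 8 fasted libraries alone, and without fasted KO replicate 1, fed KO replicate 3 or fed WT replicate 2 or 3 (0.0269 to 0.786 over all alternatives). The fed value passed without fed WT replicate 2 (0.0396 to 0.82 over all alternatives). Cyp2d12 averaged 0.184 ± 0.0732 CPM in fasted KO, 0.366 ± 0.0375 in fasted WT, 0.404 ± 0.194 in fed KO and 0.727 ± 0.173 in fed WT livers, and neither genotype difference passed. The fed one, -0.81 ± 0.33 (adjusted p = 0.0675), passed without fed KO replicate 1 or 2 (0.0372 to 0.201 over all alternatives).

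All 3 tested Cyp2j genes were lower in KO livers in both states, beside 14.5% of all genes lower in the fasted and 16.9% in the fed comparison. Cyp2j5, an epoxygenase gene of liver and kidney, held most of the cluster's level in every group. After the fast, Cyp2j5 had 515, 514, 519 and 513 CPM in KO, against 678, 613, 645 and 678 in WT livers. In fed livers, Cyp2j5 had 656, 566, 559 and 678 CPM in KO, against 791, 872, 783 and 784 in WT livers. The difference was -0.34 ± 0.08 fasted (adjusted p = 0.00206) and -0.39 ± 0.08 fed (adjusted p = 0.000685). Library totals ended both Cyp2j5 calls, at -0.16 fasted and -0.17 fed (6.47e-06 to 0.095 fasted and 9.03e-07 to 0.0643 fed over all alternatives). After the fast, Cyp2j6 had 77.3, 75.9, 74.4 and 64.7 CPM in KO, against 98.4, 84.3, 89.3 and 95.3 in WT livers. In fed livers, Cyp2j6 had 82.1, 73.4, 69.7 and 88.1 CPM in KO, against 102, 117, 109 and 114 in WT livers. Its difference was -0.33 ± 0.08 fasted (adjusted p = 0.00533) and -0.50 ± 0.08 fed (adjusted p = 0.000183), and library totals ended the fasted call (0.000701 to 0.14 over all alternatives). After the fast, Cyp2j9 had 11.6, 10.7, 9.68 and 7.65 CPM in KO, against 20.8, 16.1, 23.2 and 18.1 in WT livers. In fed livers, Cyp2j9 had 3.30, 6.09, 4.91 and 5.38 CPM in KO, against 8.57, 9.23, 14.6 and 12.3 in WT livers. Cyp2j9, known best from brain, had the largest of the 3 differences, -0.98 ± 0.19 fasted (adjusted p = 0.000901) and -1.18 ± 0.20 fed (adjusted p = 0.000303), and these calls held in all 24 alternative fits.

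The fasting comparisons asked how the same genes differ between an overnight fast and the fed state within a genotype. In KO livers 2 members were higher and 15 lower after the fast, which is 73.9% called against 41.4% of all genes (21.1% higher and 20.3% lower). In WT livers 3 were higher and 10 lower, which is 56.5% against 34.5% of all genes (16.2% higher and 18.3% lower). Cyp2c genes made up 1 higher and 9 lower in KO and 2 higher and 5 lower in WT livers, with medians of -0.74 and -0.24. Cyp2d genes were 0 higher and 5 lower in KO and 0 higher and 3 lower in WT livers, with medians of -0.33 and -0.30. The 15 and 5 lower calls in KO livers include Cyp2d11 and Cyp2d12, which the KO libraries alone did not pass to a test. A fit of those 8 libraries tested 21 members and counted 2 higher and 13 lower. Of the 3 Cyp2j genes, 1 was higher and 1 lower in KO and 1 higher and 2 lower in WT livers. The medians over all genes were -0.0044 in KO and -0.02 in WT livers.

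The members furthest down after the fast were Cyp2c70, at -2.69 ± 0.22 in KO (adjusted p = 3.37e-07) and -3.31 ± 0.23 in WT livers (adjusted p = 4.04e-08), and Cyp2c55, at -2.71 ± 0.28 in KO (adjusted p = 1.15e-06) and -3.29 ± 0.33 in WT livers (adjusted p = 1.02e-06). Cyp2c29 fell by 2.13 ± 0.18 on the log2 scale in KO (adjusted p = 2.76e-07) and by 1.58 ± 0.18 on the log2 scale in WT livers (adjusted p = 4.53e-06). In each of these genes the fasted and fed libraries were fully apart. Cyp2c39 rose in both genotypes, by 1.33 ± 0.25 in KO (adjusted p = 0.000505) and 3.49 ± 0.31 in WT livers (adjusted p = 2.26e-07), and Cyp2j9 rose by 1.01 ± 0.20 in KO (adjusted p = 0.000665) and 0.81 ± 0.19 in WT livers (adjusted p = 0.0029). Cyp2c38 rose by 1.58 ± 0.30 in WT livers (adjusted p = 0.00116), and its value in KO livers was 0.06 ± 0.28 (adjusted p = 0.883). Lower in both genotypes with smaller values were Cyp2c67, Cyp2c23, Cyp2d22, Cyp2d12, Cyp2d40 and Cyp2j5, from -0.26 ± 0.08 for Cyp2j5 to -1.13 ± 0.40 for Cyp2d12 in KO livers and from -0.30 ± 0.08 for Cyp2d22 to -1.22 ± 0.23 for Cyp2d40 in WT livers. The Cyp2d12 calls rest on under 1 CPM, and both were lost with the DESeq2 Wald test or no filter on low counts. The KO call was also lost without fasted KO replicate 3 or 4 or fed KO replicate 1 or 2, and the WT call without any fasted WT library or fed WT replicate 1, 3 or 4. Cyp2c68, Cyp2c37, Cyp2c54, Cyp2c50, Cyp2d11 and Cyp2d10 passed as lower in KO livers, and their WT values did not pass. The Cyp2d11 call rests on at most 0.774 CPM in a KO library, and the KO libraries alone did not pass the gene to a test. The KO call of Cyp2d10 was lost without fasted KO replicate 3 or 4 or fed KO replicate 2 (0.00323 to 0.0663 over all alternatives). The WT value of Cyp2c50 passed with library totals, without fasted KO replicate 4 and without fasted WT replicate 1 (0.0299 to 0.61 over all alternatives). Cyp2j6 passed as lower in WT livers at -0.27 ± 0.08 (adjusted p = 0.0164), and its KO value of -0.10 ± 0.08 did not (adjusted p = 0.35). Cyp2c40, Cyp2c69, Cyp2d9 and Cyp2d26 passed in neither genotype. The KO value of Cyp2c69, -1.23 ± 0.54 (adjusted p = 0.0874), passed as lower without robust estimation (0.0433 to 0.292 over all alternatives). The WT value of Cyp2d9 passed, as higher, in the fit of its 8 libraries alone (adjusted p = 0.0462, within 0.0462 to 0.473 over all alternatives). Without both fasted WT libraries with pancreatic transcripts, the WT calls of Cyp2d22 (-0.29 ± 0.11, adjusted p = 0.0512), Cyp2d12 (-0.98 ± 0.46, adjusted p = 0.122) and Cyp2j6 (-0.24 ± 0.10, adjusted p = 0.095) were lost. Over all alternatives these adjusted p ran over 0.00376 to 0.0512 for Cyp2d22, 0.0279 to 0.122 for Cyp2d12 and 0.00331 to 0.095 for Cyp2j6. Leaving out fasted WT replicate 2 alone also ended the Cyp2j6 call (adjusted p = 0.0599).

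**Figure D5:**
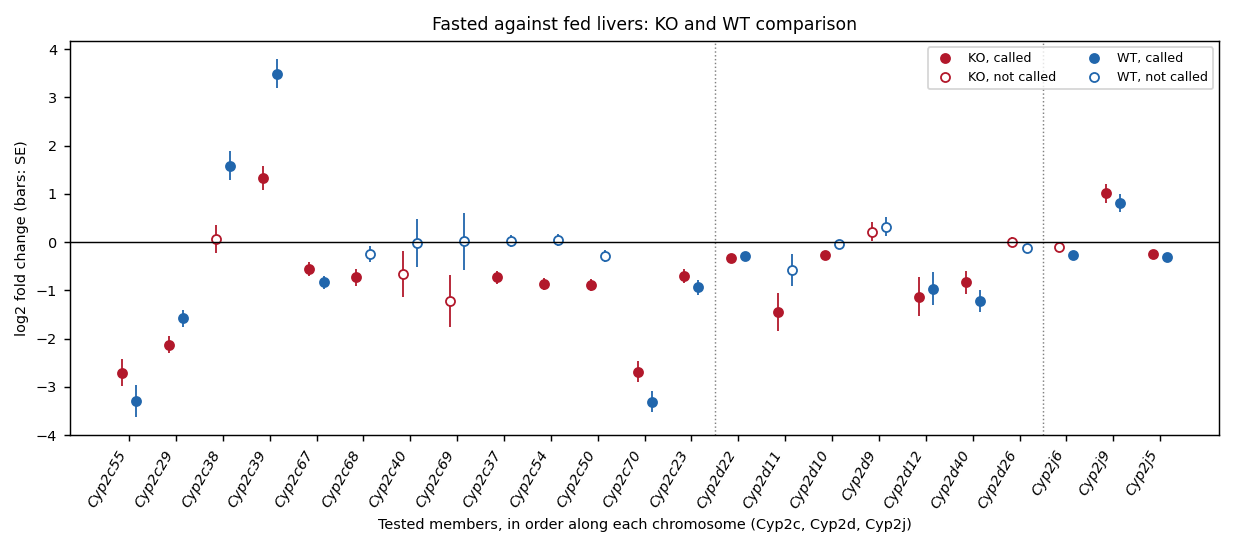
Log2 fold change of fasted over fed livers (y axis, bars are SE) for the 23 tested members in chromosome order, in KO (red) and WT (blue) livers; filled points passed the test and dotted lines part the clusters. Cyp2c39 lies at 1.33 in KO and 3.49 in WT livers, and Cyp2c37 and Cyp2c54 lie near 0 in WT and below 0 in KO livers.

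Whether the genotype difference itself changed with the fast was tested as the fasted difference minus the fed one. Of the 23 members 3 passed, all Cyp2c genes with values below 0, which is 13% against 1.7% of all genes (1.07% above 0 and 0.633% below 0), and 0 Cyp2d and 0 Cyp2j genes passed. Cyp2c39 had -2.17 ± 0.40 (adjusted p = 0.0142), with KO above WT in fed livers. Cyp2c54 had -0.92 ± 0.18 (adjusted p = 0.0142) and Cyp2c37 -0.76 ± 0.18 (adjusted p = 0.0404), with KO below WT in fasted livers. The Cyp2c39 and Cyp2c54 calls held in all 23 alternative fits, with adjusted p at most 0.0384 and 0.0341. The Cyp2c37 call was lost without any 1 of 10 libraries, which were the 4 fasted KO libraries, fasted WT replicates 1 and 3, fed KO replicate 4 and fed WT replicates 1, 2 and 4, and with no filter on low counts (0.00396 to 0.0825 over all alternatives). Cyp2c38 at -1.52 ± 0.41 (adjusted p = 0.0863) and Cyp2c50 at -0.60 ± 0.18 (adjusted p = 0.101) did not pass. Both passed with the DESeq2 Wald test, and Cyp2c38 also without robust estimation or without fed KO replicate 1 (0.0125 to 0.163 and 0.0334 to 0.195 over all alternatives). The genes whose difference passed in a single feeding state, other than these 3, were therefore not shown to differ between states.

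The genes that serve or control P450 enzymes were read from lists written from general knowledge. Of all genes tested, 28.3% were called in the fasted and 30.9% in the fed genotype comparison. For the fast the shares were 41.4% in KO and 34.5% in WT livers. The list counts here and in the next paragraph were not tested against these shares. Of 6 redox partner genes, 0 were higher and 4 lower in fasted KO livers, and 1 was higher and 2 lower in fed KO livers. Cyb5a, which encodes cytochrome b5, had -0.49 ± 0.10 in the fasted comparison (adjusted p = 0.000901), and Por, the P450 reductase gene, had 0.80 ± 0.17 in the fed one (adjusted p = 0.00274). Cyb5r3, a cytochrome b5 reductase gene, had -0.64 ± 0.11 in the fed comparison (adjusted p = 0.000301). Of 10 genes of haem synthesis and breakdown, 0 were higher and 4 lower fasted and 1 higher and 2 lower fed. Fech, whose enzyme inserts the iron in haem synthesis, was lower in both, at -0.35 ± 0.06 fasted (adjusted p = 0.000355) and -0.32 ± 0.06 fed (adjusted p = 0.000756). Ephx2, whose enzyme opens epoxy fatty acids, was lower, at -0.71 ± 0.09 fasted (adjusted p = 8.38e-06) and -0.76 ± 0.09 fed (adjusted p = 3.54e-06), and Ephx1 had 0.83 ± 0.20 in the fed comparison (adjusted p = 0.00637).

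Of 12 receptors and factors acting on P450 genes, 1 was higher and 0 lower in fasted KO livers, namely Nr1h4, the bile acid receptor, at 0.50 ± 0.12 (adjusted p = 0.00351). In fed KO livers 0 were higher and 1 lower, namely Ppara, a fatty acid receptor, at -0.89 ± 0.17 (adjusted p = 0.00142). Of 10 genes of growth hormone signalling and sex-biased repressors, 1 was higher and 3 lower fasted and 1 higher and 2 lower fed. Ghr, the growth hormone receptor, was lower, at -0.65 ± 0.09 fasted (adjusted p = 5.31e-05) and -1.01 ± 0.09 fed (adjusted p = 3.61e-07), and Igf1, a target of that hormone, at -0.63 ± 0.10 fasted (adjusted p = 0.000207) and -0.52 ± 0.10 fed (adjusted p = 0.00107). Stat5a was higher, at 0.32 ± 0.10 fasted (adjusted p = 0.0202) and 0.49 ± 0.09 fed (adjusted p = 0.000783). After the fast Por rose in both genotypes, by 1.53 ± 0.18 in KO and 2.05 ± 0.18 in WT livers, and Cyb5b, an outer mitochondrial membrane cytochrome b5, fell by 1.73 ± 0.08 in KO and by 1.61 ± 0.08 in WT livers. Ephx2 rose by 1.26 ± 0.09 in KO and 1.21 ± 0.09 in WT livers. The list of 2 epoxide hydrolase genes, Ephx1 and Ephx2, counted 1 higher and 0 lower in KO and 2 higher and 0 lower in WT livers after the fast. The redox partner list counted 1 higher and 4 lower in KO and 1 higher and 3 lower in WT livers after the fast. The haem list counted 1 higher and 5 lower in KO and 1 higher and 2 lower in WT livers after the fast, and the receptor list 4 and 4 in KO and 2 and 3 in WT livers. The growth hormone list counted 0 higher and 5 lower in KO and 1 higher and 5 lower in WT livers. Of these lists 0 genes passed the test of the difference between feeding states, which 1.7% of all genes passed.

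Genes that lie beside the clusters but encode other proteins gave a mixed picture. Of all 13905 genes tested, 13.8% were higher and 14.5% lower in fasted KO livers, and 14% higher and 16.9% lower in fed ones. The counts of neighbours and pseudogenes were not tested against these shares. Within 500 kb of the main Cyp2c cluster, 3 of 9 tested genes were higher and 0 lower in fasted KO livers. Aldh18a1, a gene of proline synthesis, was higher in both states, at 2.49 ± 0.29 fasted (adjusted p = 6.41e-06) and 2.12 ± 0.27 fed (adjusted p = 1.41e-05). Pdlim1 was higher in both states, Noc3l higher in the fasted state, and Tctn3 lower in the fed state, and full counts are not given for that state. Beside Cyp2c23, 1 of 15 tested genes was higher and 1 lower fasted, namely Erlin1 and Got1, and 2 were higher (Scd2 and Dnmbp) and 3 lower (Scd1, Sec31b and Cpn1) fed. Around the Cyp2d genes, 3 of 19 were higher and 0 lower fasted, namely Pmm1, Phf5a and Poldip3, and 3 were higher (Pmm1, Cenpm and Phf5a) and 2 lower (Cyb5r3 and Serhl) fed. Beside the Cyp2j genes 0 of 2 passed in either state. Of 9 pseudogenes inside the clusters 4 had enough reads, and in fed KO livers Cyp2c52-ps was higher at 3.60 ± 0.60 (adjusted p = 0.000212) and Cyp2c53-ps, Cyp2d41-ps and Cyp2d37-ps were lower. Cyp2c53-ps, which overlaps Cyp2c29, had -2.89 ± 0.45 in the fed comparison (adjusted p = 0.000199), where Cyp2c29 did not pass. In fasted KO livers Cyp2c52-ps was higher at 1.49 ± 0.55 (adjusted p = 0.0478) and Cyp2d41-ps lower at -1.77 ± 0.38 (adjusted p = 0.00244).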

How the data were processed

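Stranded poly(A) libraries of 16 livers were made from 500 ng of total RNA, per the labels' protocols. The deposited values are raw counts: whole reads per gene, not normalized by the authors. Cutadapt 1.8, STAR 2.5.3a and HTSeq 0.9.1 are the tools listed in the submitters' processing notes, with GRCm38 as the build; how HTSeq treated strand is not stated there. Lines that name no gene stayed out of totals; reads without a gene were 2.98 to 4.29% and ambiguous reads 1.05 to 1.65%. GENCODE M21 gave symbols, exons and positions for 99.8% of gene IDs.

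All 13905 genes kept by filterByExpr entered a single edgeR 4.0.16 quasi-likelihood fit (R 4.3.3, TMM, robust, a coefficient per group). Adjusted p is by Benjamini-Hochberg over all of them, with a threshold of 0.05, and SE is the log2 fold change over the square root of F. Between libraries of a group the chi-square per gene was 6.80 to 92.3, so none was the same library sequenced again. These values cannot tell whether separate libraries came from the same liver. Shared 50-base stretches were counted over GENCODE transcripts, and identities over longest open reading frames. The procedure was also run on simulated counts with a common spread for all genes and known changes in the fed KO libraries alone. That setting does not test the scaling between genotypes.

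Members, lists, tests and alternatives were chosen with earlier results of these data known. Values per library are printed for each member called in a genotype or interaction test and for the highest of each cluster; from lists, up to 3 called genes with the smallest p, and called neighbours, of which some results are not reported here. A planned search for genes of most similar pattern was dropped, since the libraries fall into 4 groups and no pooled correlation is given. Alternatives were DESeq2 1.42.0 size factors and Wald test, library totals, no filter, no robust estimation, the replicate block, only the 8 libraries compared, adjusted p under 0.01, each library left out, and fasted WT replicates 2 and 4 left out together.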

Additional observations from a re-analysis of the deposited data

Results flagged for a closer look

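In 5 of the 92 groups of 4 libraries looked at, a single library stood apart from the other 3, where chance alone gives about 4.6. Cyp2c23 had 123.9 CPM in fasted KO replicate 4, against 214 to 233 in the other fasted KO libraries. The same library was low for Cyp2c67, with 151 CPM against 235 to 248. For Cyp2d10, fasted WT replicate 1 had 611 CPM and the others 678 to 684. Cyp2d26 had 965 CPM in fed WT replicate 3, above the 852 to 860.3 of the other fed WT libraries. Cyp2j5 had 872 CPM in fed WT replicate 2, above the others at 783 to 791.

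The genotype difference changed between feeding states in the edgeR test for 3 members. It was lower in the fasted than in the fed state by a log2 value of -2.17 for Cyp2c39 (adjusted p = 0.0142), -0.92 for Cyp2c54 (adjusted p = 0.0142) and -0.76 for Cyp2c37 (adjusted p = 0.0404).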

How the results depend on the processing

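Over the 115 values of the 23 tested members in 5 contrasts and all alternatives, 2655 results kept direction and side of the threshold, 112 lost and 25 gained a call, and 56 changed sign. Of the sign changes, 28 were in 26 values that no setting called, of genes also not called in the matching contrast. The matching contrast is the same one in the other feeding state or genotype. These 28 are not listed, and the other never-called values are not among the 26. Members called higher in the fed genotype comparison, 5 in the report, numbered 2 with no filter on low counts, 2 at adjusted p under 0.01, 3 with the replicate block and 2 to 5 when a library was left out. The 2 kept were Cyp2c38 and Cyp2c39 in each of these settings that gave 2. In the fasted genotype comparison library totals gave 2 higher and 6 lower, adjusted p under 0.01 gave 8 lower, and leaving out fasted WT replicates 2 and 4 gave 0 higher. The interaction counted 5 lower with the DESeq2 Wald test and 0 at adjusted p under 0.01. The cause was not tested, except that the stricter threshold by construction calls fewer.

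Between livers of the same replicate number, deviations from the group means correlated at -0.17 to 0.25. No level for unpaired livers was computed, so these values cannot decide whether replicate numbers pair the livers. The replicate block took away the fed calls of Cyp2c68, Cyp2c69 and Cyp2c23 and changed no other genotype or interaction call.

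The other sign changes were of values that passed the test on neither side. With library totals they were Cyp2c29 at 0.18, Cyp2c54 at 0.15, Cyp2d22 at 0.028 and Cyp2d10 at 0.078 in the fed, and Cyp2c23 at 0.0024 in the fasted genotype comparison. Fasted over fed they were Cyp2c37 at -0.030 and Cyp2c54 at -0.0098 in WT livers and Cyp2c38 at -0.017 in KO livers. With no filter, Cyp2c37 in WT livers was -0.0079. Without fasted WT replicates 2 and 4, fasted Cyp2c39, Cyp2c68 and Cyp2c69 were -0.15, -0.14 and -0.077. Leaving out a library gave -0.16 to 0.23 for Cyp2c39 and -0.12 to 0.12 for Cyp2c68 in the fasted, and -0.13 to 0.054 for Cyp2c29 in the fed genotype comparison. It gave -0.12 to 0.26 for Cyp2c38 in KO livers after the fast, and -0.069 to 0.10 for Cyp2c37 and -0.020 to 0.10 for Cyp2c54 in WT livers. Depth limits Cyp2d11 and Cyp2d12 most, with few reads per library.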
